A study of Mus musculus with 10 samples.

Results

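The genes described here encode the methionine cycle and the methyl transfer that runs on it, in gastrocnemius (calf) muscle of mice fed L-carnitine. There are 8 of them: Ahcy, Ahcyl1, Ahcyl2, Mat2a, Mat2b, Mtr, Nnmt and Cbs. Probe sets annotated to a single gene symbol were taken, and of several probe sets of a gene the brightest by its mean in the 10 arrays stood for it. That gave values for 7 of the 8 genes among 22180 genes on the array. Mat2a, a catalytic subunit of S-adenosylmethionine synthesis, was not analysed here. The set was drawn up by pathway with results of these arrays known, and Ahcy was in it because it had been seen to differ between the diets. The values of Ahcy are therefore a description, with no test. The other 6 genes are read from the fit over all genes.

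The 5 carnitine mice ate a natural-ingredient basal diet with 1000 mg L-carnitine added per kg, and the 5 control mice ate that basal diet alone, whose own carnitine content was below 5 mg per kg. The basal diet of both groups carried 4.5 g added DL-methionine and 1.5 g choline chloride per kg, both of them sources of methyl groups. All mice were male NMRI mice, an outbred stock, brought in at 3 weeks of age, housed 5 to a cage and put on the diets after a short acclimatisation. The labels do not say which cage an array's mouse came from. The labels give 1 muscle RNA sample per array, taken here as 1 mouse, so p-values measure the spread between these samples. The study killed mice of both diets at 9, 15 and 18 months, and the labels do not give the age of the mice on the arrays, so age may differ between them.

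Methionine is activated to S-adenosylmethionine, the methyl donor of most methyltransferases. Each transfer leaves S-adenosylhomocysteine, a product inhibitor, which the Ahcy hydrolase splits into adenosine and homocysteine. Homocysteine is methylated back to methionine by methionine synthase (Mtr), or leaves the cycle through cystathionine beta-synthase (Cbs) towards cysteine. The pathway bears on carnitine because the trimethyllysine from which mammals make carnitine is formed by S-adenosylmethionine-dependent methylation of lysine in proteins.

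The upstream sequences of the 3 members of the hydrolase family are shown because Ahcy, which was picked for its difference, belongs to it. That choice is no result about the family. They are the 250 bases before the first listed RefSeq transcript start of each gene in GRCm38.p6, 5′ to 3′ on the gene's own strand. Ahcy lies at chr2:155074498-155074747 (minus strand), Ahcyl1 at chr3:107696561-107696810 (minus strand) and Ahcyl2 at chr6:29768193-29768442 (plus strand).
Ahcy: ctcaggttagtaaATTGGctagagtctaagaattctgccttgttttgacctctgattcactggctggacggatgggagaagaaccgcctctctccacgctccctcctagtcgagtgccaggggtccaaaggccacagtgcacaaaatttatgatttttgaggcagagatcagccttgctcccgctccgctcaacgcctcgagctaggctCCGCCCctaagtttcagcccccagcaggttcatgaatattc
Ahcyl1: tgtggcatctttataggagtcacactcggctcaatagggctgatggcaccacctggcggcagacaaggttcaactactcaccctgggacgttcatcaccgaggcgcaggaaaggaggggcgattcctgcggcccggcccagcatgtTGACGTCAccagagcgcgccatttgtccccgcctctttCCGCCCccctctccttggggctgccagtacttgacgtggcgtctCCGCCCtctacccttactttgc
Ahcyl2: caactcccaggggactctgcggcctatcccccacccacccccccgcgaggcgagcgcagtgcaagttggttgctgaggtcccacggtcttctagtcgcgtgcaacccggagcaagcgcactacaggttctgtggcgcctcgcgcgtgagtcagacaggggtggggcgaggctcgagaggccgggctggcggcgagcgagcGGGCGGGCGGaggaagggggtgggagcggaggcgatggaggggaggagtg
Capitals mark letters found on either strand: the GC box GGGCGG, the CCAAT box CCAAT, the cyclic AMP response element TGACGTCA and the E-box CACGTG. The Ahcy window held 1 GC box and 1 CCAAT box. The Ahcyl1 window held 2 GC boxes and 1 cyclic AMP response element. The Ahcyl2 window held 2 GC boxes, which overlap. Of 27018 windows of 250 bases, 1 per gene, 32.9% held the GC box, 34.5% the CCAAT box, 1.62% the cyclic AMP response element and 6.05% the E-box. The matches describe the letters only, and the arrays carry no measurement of binding.

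Values are RMA log2 values, so 1 unit is a doubling, and every difference is carnitine minus control. All 12 skeletal muscle markers, such as Acta1 and Ckm, were among the brightest 5% of genes, and 9 of 10 hepatocyte markers and 7 of 8 T cell markers lay below the median gene. Any 2 arrays correlated at 0.973 to 0.994 across genes. The array of control replicate 5 differed from the rest in spread: its values had an interquartile range of 2.20, next to 2.39 on control replicate 4 and 2.46 to 2.59 on the other 8 arrays. Results that rest on these 2 arrays are given with that in view. In the fit over all genes 0 of 22180 (0%) passed an adjusted p of 0.05 in limma, while 1546 had an unadjusted p below 0.05 (6.97%). Of these, 696 were higher in carnitine (3.14%) and 850 were lower (3.83%).

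A pair of probe sets is annotated to Ahcy, the hydrolase itself, and they moved in opposite directions. The brighter one, which the rule kept, read 7.87, 7.81, 7.76, 7.68 and 7.65 in the carnitine mice, against 7.50, 7.60, 7.12, 7.14 and 7.16 in the control mice. Every carnitine mouse lay above every control, and the controls fell into a higher set (replicates 1 and 2) and a lower one (replicates 3, 4 and 5). The means were 7.75 ± 0.09 in carnitine and 7.30 ± 0.23 in control (SD, n = 5 each), a difference of 0.45 or 1.37-fold. Of all genes, 0.505% had separate groups with carnitine higher and 0.609% with carnitine lower. Ahcy was picked for this gap, so nothing is read from it. Leaving out any array gave a difference of 0.40 to 0.52, and cyclic loess scaling gave 0.38. Both use the arrays on which Ahcy was picked, so they add no support for the gap.

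The dimmer Ahcy probe set read 5.54, 4.73, 5.10, 5.16 and 5.04 in carnitine, against 5.28, 5.30, 5.25, 5.60 and 5.61 in control. Here 4 of 5 carnitine mice lay below every control, and carnitine replicate 1 lay within the control range. The means were 5.11 ± 0.29 in carnitine and 5.41 ± 0.18 in control (SD, n = 5 each), a difference of -0.29. Both means are below 5.80, the level of the median probe set, so this is a dim signal. With the mean of the 2 probe sets in place of the brighter one, the Ahcy difference was 0.08. The direction of Ahcy therefore depends on which probe set is read, and the annotation used here does not say which transcripts each of them detects. Probe set numbers of the other members rise in the order of chromosomes 11, 13, 17, 3, 6 and 9. Ahcy lies on chromosome 2. The number of the dimmer probe set falls between those of chromosomes 17 and 3, and that of the brighter between those of 13 and 17. Whether the brighter one reads the Ahcy gene was not tested.

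A gap of this size between probe sets was rare on these arrays. In 1082 genes with more than 1 probe set, the differences of the 2 brightest had opposite signs in 468 (43.3%), and the median gap between them was 0.12. The gap for Ahcy was 0.74, and 4 genes, Ahcy included, had one at least as large. The comparison is a description, since Ahcy entered through its brighter probe set.

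**Figure D1:**
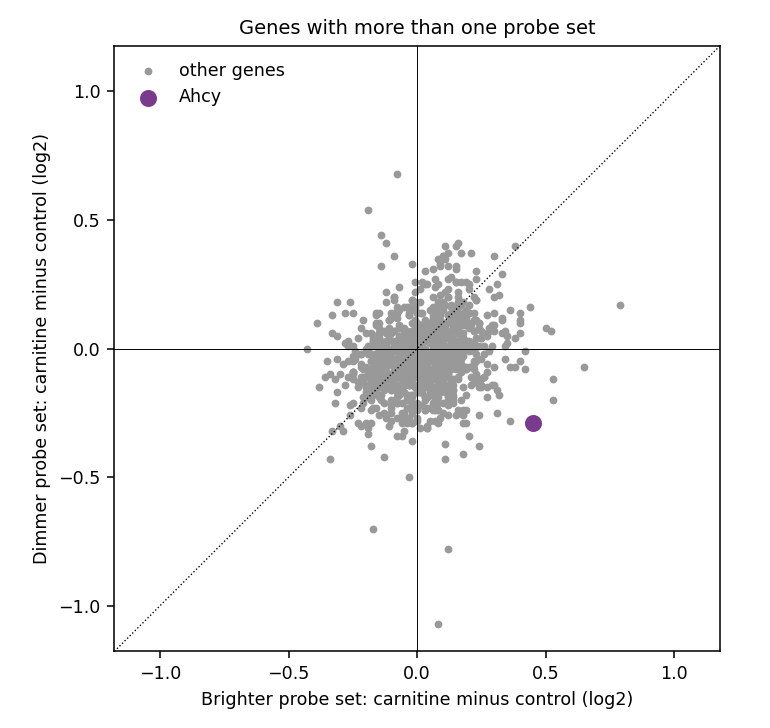
Carnitine minus control (log2) in the brighter probe set (x axis) and the dimmer probe set (y axis) of the 1082 genes with more than 1 probe set, 1 point per gene, with the line of equality dotted. Ahcy, at 0.45 and -0.29, lies at the lower right, away from the cloud around the origin.

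Ahcyl1 and Ahcyl2 encode proteins related to the hydrolase. Ahcyl1, also called IRBIT, binds the inositol trisphosphate receptor and regulates ion transporters rather than splitting S-adenosylhomocysteine. It read 9.39, 9.46, 9.49, 9.43 and 9.54 in carnitine, against 9.28, 9.48, 9.40, 9.36 and 9.00 in control. The carnitine mice lay close together and 2 of them were above every control, and control replicate 5 was the lowest of the 10. The means were 9.46 ± 0.06 in carnitine and 9.30 ± 0.18 in control (SD, n = 5 each). The difference of 0.16 (SE 0.093, 95% interval -0.04 to 0.36) had an adjusted p of 0.72 in limma. Without control replicate 5 it was 0.08, and after cyclic loess it was 0.05.

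Ahcyl2 read 7.31, 7.20, 7.12, 7.15 and 7.03 in carnitine, against 7.23, 7.20, 7.13, 7.00 and 7.11 in control, and the groups overlapped almost fully. Its difference was 0.03 (SE 0.085, 95% interval -0.15 to 0.21, limma adjusted p = 0.94). The sign turned after cyclic loess (-0.02). Of 7 measured partners of Ahcyl1, 6 had a positive difference (4 after cyclic loess) with a median of 0.084, and 0 passed the adjusted threshold. They included the inositol trisphosphate receptor Itpr3, whose brighter probe set stood at 0.14 (SE 0.099), and Rrm1, the large subunit of ribonucleotide reductase, which Ahcyl1 inhibits. Rrm1 averaged 8.17 ± 0.06 in carnitine and 7.90 ± 0.22 in control, a difference of 0.27 (SE 0.10, limma adjusted p = 0.71) that was 0.17 after cyclic loess. The dimmer probe set of Itpr3 stood at -0.14, so its direction depends on the probe set as that of Ahcy does, and the mean of both gave 0.001.

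**Figure D2:**
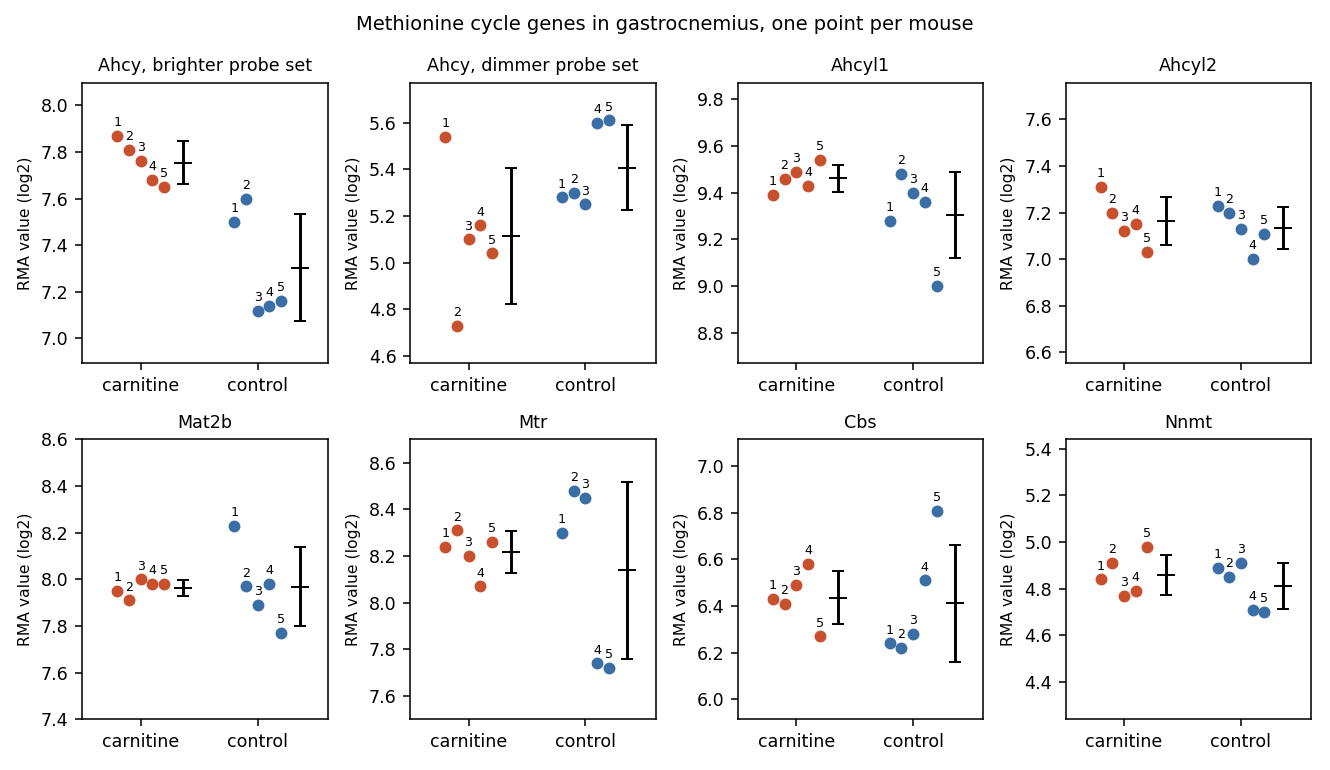
RMA log2 values (y axis) of the 7 measured genes, with both probe sets of Ahcy, in carnitine mice (left, red) and control mice (right, blue). Each point is 1 mouse with its replicate number, the black marks are mean and SD (n = 5), and every panel spans 1.2 log2 units. Only the brighter Ahcy probe set separates the groups, and control replicates 4 and 5 lie apart from the other controls in Mtr.

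S-adenosylmethionine synthesis was represented by Mat2b, the regulatory subunit that binds the Mat2a enzyme. It read 7.95, 7.91, 8.0, 7.98 and 7.98 in carnitine, against 8.23, 7.97, 7.89, 7.98 and 7.77 in control. The carnitine mice spanned less than 0.1 and lay inside the control range. The means were 7.96 ± 0.04 in carnitine and 7.97 ± 0.17 in control (SD, n = 5 each). The difference was -0.004 (SE 0.091, 95% interval -0.20 to 0.19, limma adjusted p = 0.99), and it was 0.03 after median centring.

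Mtr, the cobalamin-dependent enzyme that remethylates homocysteine with a methyl group from folate, had the widest control spread of the members. It read 8.24, 8.31, 8.20, 8.07 and 8.26 in carnitine, against 8.30, 8.48, 8.45, 7.74 and 7.72 in control. Control replicates 4 and 5 were lower than all other mice, and control replicates 2 and 3 were higher than all carnitine mice. The means were 8.22 ± 0.09 in carnitine and 8.14 ± 0.38 in control (SD, n = 5 each), and the difference of 0.08 (SE 0.15, 95% interval -0.24 to 0.39) had an adjusted p of 0.89 in limma. It was -0.02 without control replicate 4, -0.03 without control replicate 5 and -0.02 after cyclic loess, which left control replicates 4 and 5 at 7.82 and 7.99. The 2 low arrays are the ones with the narrowest interquartile ranges, and the part of this in the Mtr values was not tested.

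Cbs, which commits homocysteine to cysteine, read 6.43, 6.41, 6.49, 6.58 and 6.27 in carnitine, against 6.24, 6.22, 6.28, 6.51 and 6.81 in control. The highest value was that of control replicate 5, and control replicates 1 and 2 had the lowest. The means were 6.44 ± 0.11 in carnitine and 6.41 ± 0.25 in control (SD, n = 5 each). The difference was 0.02 (SE 0.12, 95% interval -0.23 to 0.28, limma adjusted p = 0.96), and without control replicate 5 it was 0.12.

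Nnmt uses S-adenosylmethionine to methylate nicotinamide, and so draws on both the methyl pool and the precursor of NAD. It read 4.84, 4.91, 4.77, 4.79 and 4.98 in carnitine, against 4.89, 4.85, 4.91, 4.71 and 4.70 in control. These levels lie under the median gene level of 6.13, where RMA shrinks differences. The groups overlapped, with a difference of 0.05 (SE 0.086, 95% interval -0.14 to 0.23, limma adjusted p = 0.89), which was 0.12 after cyclic loess. Nnmt was the 1 measured member below that level.

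Of the 6 members without Ahcy, 5 had a positive difference, next to 47.5% of all genes and 67.5% of genes at or above the median level. That level was reached by 5 of the 6, so the count is no result about the members. Among the 6, 0 passed the adjusted threshold and 0 had an unadjusted p below 0.05 in limma, against 6.97% of all genes. Groups that did not overlap were seen in 0, against 1.11% of all genes. Counting Ahcy, 6 of 7 were positive, next to 4 of 7 after cyclic loess and 7 of 7 after median centring. Without Ahcy the median difference was 0.037, next to -0.008 over all genes and 0.058 over the 11094 genes at or above the median level. As folds of the RMA values, the lowest lower limit of their intervals was 0.848 and the highest upper limit was 1.31, both for Mtr. For the 5 members other than the dim Nnmt, a 1.5-fold difference on that scale lay outside the interval. The intervals rest on 5 mice per group.

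Nnmt and Cbs varied against each other from mouse to mouse within the diets. With each group's mean removed, Pearson's r over the 10 mice was -0.85 (exact permutation within groups, two-sided, p = 0.0022, adjusted over 21 pairs of members 0.044). Spearman's rho was -0.81 (exact permutation p = 0.016, adjusted 0.14), so the rank correlation did not pass. Without the mice farthest from the median of Nnmt, carnitine replicate 5 and control replicate 5, r was again -0.85. Leaving out any array gave r from -0.90 to -0.83, with adjusted exact permutation p values from 0.073 to 0.11, so the call was lost in every omission. It was -0.93 after median centring and -0.97 after cyclic loess. Control replicates 4 and 5 had the lowest Nnmt of all 10 mice, and control replicate 5 had the highest Cbs. The control values of Nnmt thus fell into separate sets on the same arrays as those of Mtr. They were 4.89, 4.85 and 4.91 in replicates 1, 2 and 3, against 4.71 and 4.70. The pooled r carries that split, and its value without both arrays is not given. Within the carnitine mice r was -0.91 and within the controls -0.88, each on 5 mice and without a test. Both arrays have a narrow range, and the part of this in the relation was not tested beyond the r of -0.90 without control replicate 5.

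**Figure D3:**
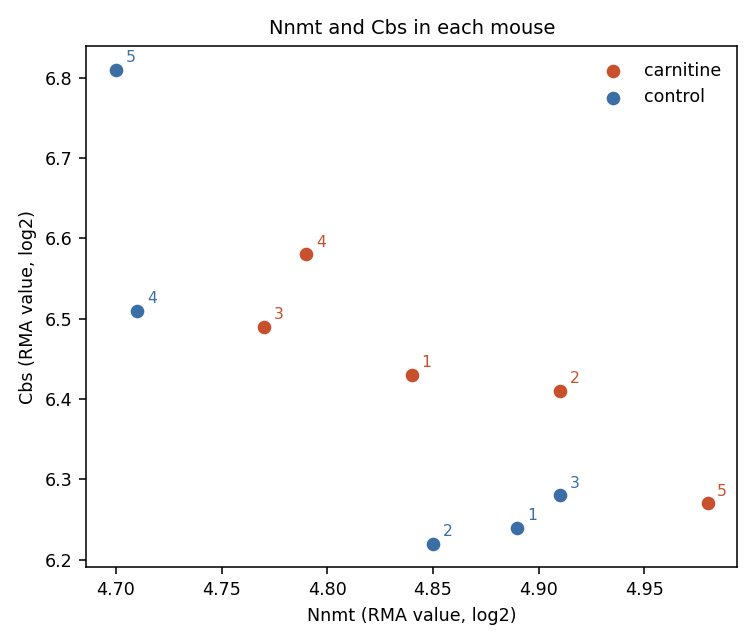
Nnmt (x axis) against Cbs (y axis), RMA log2 values, in carnitine mice (red) and control mice (blue), 1 point per mouse with its replicate number. Cbs is higher where Nnmt is lower in both groups, and control replicate 5 sits at the upper left corner with 4.70 and 6.81.

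The other pair of members past the adjusted threshold was Mtr with Cbs. The control values of Mtr, like those of Ahcy, fall into separate sets, so no pooled correlation is given for pairs of members with either gene. Those of Nnmt do so too, and its pooled correlation with Cbs is to be read with that limit. None of the remaining 9 pairs passed.

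Likeness to the brighter Ahcy probe set was ranked by Pearson's r over the 10 mice with group means removed. The ranking covered 10522 genes at or above the median level, with predicted Gm and Rik genes passed over. The most alike were Glud1 (0.963), Fap (0.946), Ankrd44 (0.932) and Tram1 (0.930). Glud1 encodes mitochondrial glutamate dehydrogenase, Fap the fibroblast activation protein, a surface protease of activated fibroblasts, and Tram1 a protein of the endoplasmic reticulum translocon. These are the highest of many values and carry the separation of the controls seen in the brighter Ahcy probe set. In each of these genes control replicates 1 and 2 lay above replicates 3, 4 and 5, so the pooled r largely repeats that split. Fap averaged 7.26 ± 0.17 in carnitine and 6.96 ± 0.27 in control, with values of 7.10 to 7.46 in carnitine and 6.73 to 7.33 in control. The mean level over 10 fibroblast markers was 7.68 to 8.20 in carnitine and 7.44 to 8.06 in control, and 9 of the 10 had a positive difference (median 0.17). The 5 carnitine mice had the same order in the fibroblast mean and in the brighter Ahcy probe set, and the controls did not. The mean over 10 endothelial markers put the carnitine mice in that order too, so the order is not particular to fibroblast genes. Control replicates 1 and 2 also had the highest endothelial means of the controls, 8.23 and 8.21, next to 7.57 to 8.04 in replicates 3, 4 and 5. The part of fibroblast or endothelial content in the Ahcy values was not tested. In whole muscle, more cells of a type and more RNA per cell cannot be told apart.

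The mean over 10 slow-fibre markers was 7.16 to 9.65 in carnitine and 8.99 to 9.88 in control, with carnitine replicates 1, 2 and 5 under every control. In those 3 mice the brighter Ahcy probe set read 7.87, 7.81 and 7.65, and in the carnitine mice at control levels of slow-fibre genes, replicates 3 and 4, it read 7.76 and 7.68. The adipocyte mean was 6.74 to 7.10 in carnitine and 6.78 to 7.36 in control, and the macrophage mean was 6.10 to 6.46 in carnitine and 6.09 to 6.65 in control. The endothelial mean was 7.83 to 8.24 in carnitine and 7.57 to 8.23 in control.

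Beyond the members, 137 genes of 11 lists around the cycle were measured. They leaned to the higher side in carnitine: 97 had a positive and 39 a negative difference, with a median of 0.062. Most of these genes are well expressed, and genes at or above the median level leaned the same way on these arrays as a whole. In that range 86 of 106 pathway genes were positive (81.1%, median 0.082), next to 67.5% of all genes (median 0.058). None of the 137 passed the adjusted threshold in limma, and 10 had an unadjusted p below 0.05 on the higher side and 1 on the lower side, next to 3.14% and 3.83% of all genes. At or above the median level these were 9 and 1 of 106 pathway genes, next to 592 and 148 of 11094 genes. The 10 on the higher side were 5 without control replicate 5 or carnitine replicate 4, 6 without carnitine replicate 1 or 2, and 16 without control replicate 3. After cyclic loess they were 5, with 81 of the 137 positive, next to 111 positive after median centring.

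**Figure D4:**
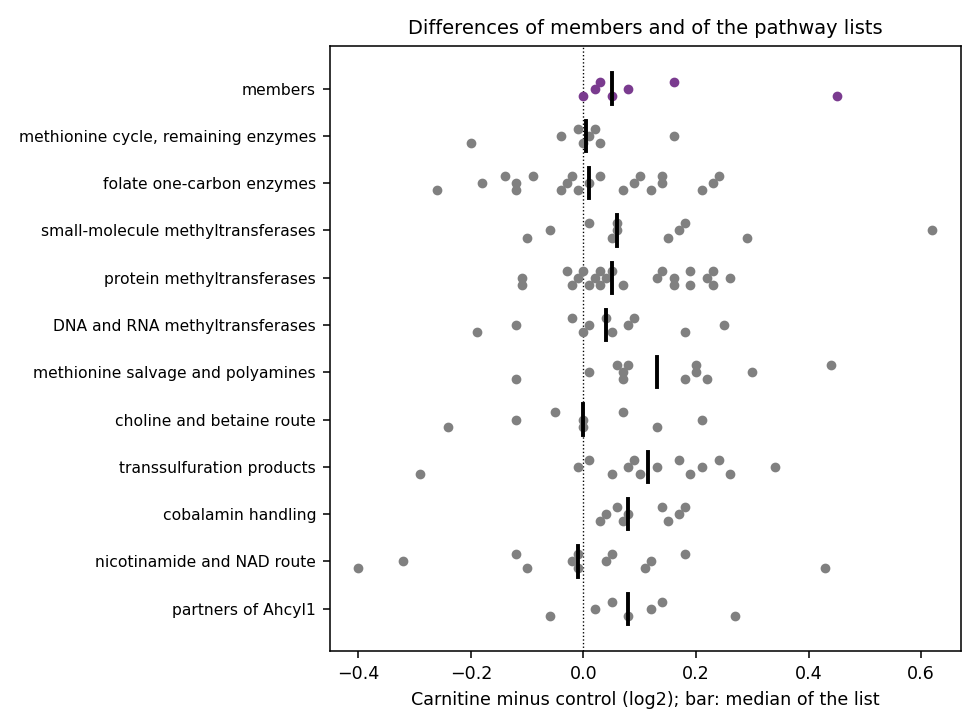
Carnitine minus control (log2, x axis) for each measured gene, 1 point per gene, of the members (top) and of the 11 lists around the cycle, with a bar at each list's median. The medians lie between -0.006 and 0.129.

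Of the 8 remaining enzymes and regulators of the cycle itself, 4 had a positive and 4 a negative difference, with a median of 0.002. Slc25a26, which carries S-adenosylmethionine into mitochondria, stood at 0.16 (SE 0.098), and at 0.09 both after cyclic loess and without control replicate 5. The liver enzymes Mat1a and Bhmt had weak signals: Mat1a averaged 5.31 ± 0.16 in carnitine and 5.35 ± 0.35 in control, and Bhmt averaged 4.48 ± 0.19 in carnitine and 4.68 ± 0.29 in control. The Bhmt difference was -0.20, and -0.10 without control replicate 5. Mtrr, which reactivates methionine synthase, differed by -0.01 (SE 0.081), and Adk, which removes the adenosine that the hydrolase releases, by 0.03 (SE 0.13). Both of these were named after their values had been seen.

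In 21 folate enzymes, which supply the methyl group used by Mtr, 11 were positive and 10 negative, next to 10 and 11 after cyclic loess. Mthfd1, the trifunctional cytosolic enzyme, averaged 8.25 ± 0.04 in carnitine and 8.04 ± 0.16 in control, a difference of 0.21 (SE 0.090) that was 0.11 after cyclic loess. Shmt1, the cytosolic serine hydroxymethyltransferase, differed by 0.23 (SE 0.10) and Aldh1l2, a mitochondrial folate dehydrogenase, by -0.26 (SE 0.13), each with an adjusted p of 0.71 in limma. Without carnitine replicate 4 the Aldh1l2 difference was -0.17. All 9 genes of cobalamin handling, the cofactor of Mtr, were positive, from 0.03 to 0.18, next to 7 of 9 after cyclic loess, and 0 of them had an unadjusted p below 0.05. Lmbrd1, a lysosomal cobalamin exporter, stood at 0.17 (SE 0.085) and Mmachc, which processes cobalamin in the cytosol, at 0.15 (SE 0.093). After cyclic loess Lmbrd1 was at 0.07 and Mmachc at 0.08. In 8 genes of the choline and betaine route 3 were positive and 4 negative (6 and 2 after cyclic loess), with the choline transporter-like Slc44a2 at 0.21 (SE 0.086), or 0.12 after cyclic loess.

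The small-molecule methyltransferases held the gene with the largest difference of the 137. Gamt, which uses S-adenosylmethionine to make creatine, read 8.05, 8.21, 8.14, 8.13 and 8.11 in carnitine, against 7.34, 7.99, 8.01, 6.92 and 7.29 in control. All carnitine mice lay above all controls, of which replicates 2 and 3 came close. The means were 8.13 ± 0.06 in carnitine and 7.51 ± 0.48 in control (SD, n = 5 each), and the difference of 0.62 (SE 0.18) had an adjusted p of 0.71 in limma. It was the 1 gene of the 137 whose groups did not overlap, next to 1.11% of all genes, so this count is no result about the lists. Carnmt1, which methylates carnosine, differed by 0.29 (SE 0.12). Of 11 genes of this list 9 were positive (7 after cyclic loess).

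Of 23 protein methyltransferases 18 were positive (12 after cyclic loess), with a median of 0.052, and 0 had an unadjusted p below 0.05. Prmt1, the main arginine methyltransferase, stood at 0.22 (SE 0.10) and Prmt5, which forms symmetric dimethylarginine, at 0.23 (SE 0.11). After cyclic loess Prmt1 was at 0.13 and Prmt5 at 0.12, and Prmt5 was also at 0.12 without control replicate 1. Of 11 genes for DNA and RNA methylation 8 were positive and 3 negative (5 and 6 after cyclic loess). Dnmt3b was among the negative ones at -0.19 (SE 0.093), with a weak signal of 5.58 ± 0.07 in carnitine and 5.77 ± 0.15 in control. Of 12 genes of polyamine synthesis and methionine salvage, which recycle the rest of S-adenosylmethionine after its decarboxylation, 11 were positive (8 after cyclic loess) with a median of 0.129. They included Oaz2, an inhibitor of ornithine decarboxylase (0.20, SE 0.088, and 0.11 after cyclic loess), and Mtap, the first enzyme of salvage (0.22, SE 0.11).

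Downstream of Cbs, 12 of 14 genes of cysteine use were positive (11 after cyclic loess), with a median of 0.113. Slc6a6, the taurine transporter, averaged 9.70 ± 0.11 in carnitine and 9.46 ± 0.07 in control, a difference of 0.24 (SE 0.080, limma adjusted p = 0.71). Suox, sulfite oxidase, differed by 0.26 (SE 0.11). After cyclic loess Slc6a6 was at 0.14 and Suox at 0.17. Around Nnmt, 6 of 13 genes of the nicotinamide and NAD route were positive and 7 negative (7 and 6 after cyclic loess). Nmrk1, a nicotinamide riboside kinase, stood at 0.43 (SE 0.18), and Aox1, which oxidises the methylnicotinamide that Nnmt makes, at -0.32 (SE 0.14), with 4 of 5 controls above every carnitine mouse. Both had an adjusted p of 0.71 in limma, and without control replicate 5 the Nmrk1 difference was 0.27.

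**Figure D5:**
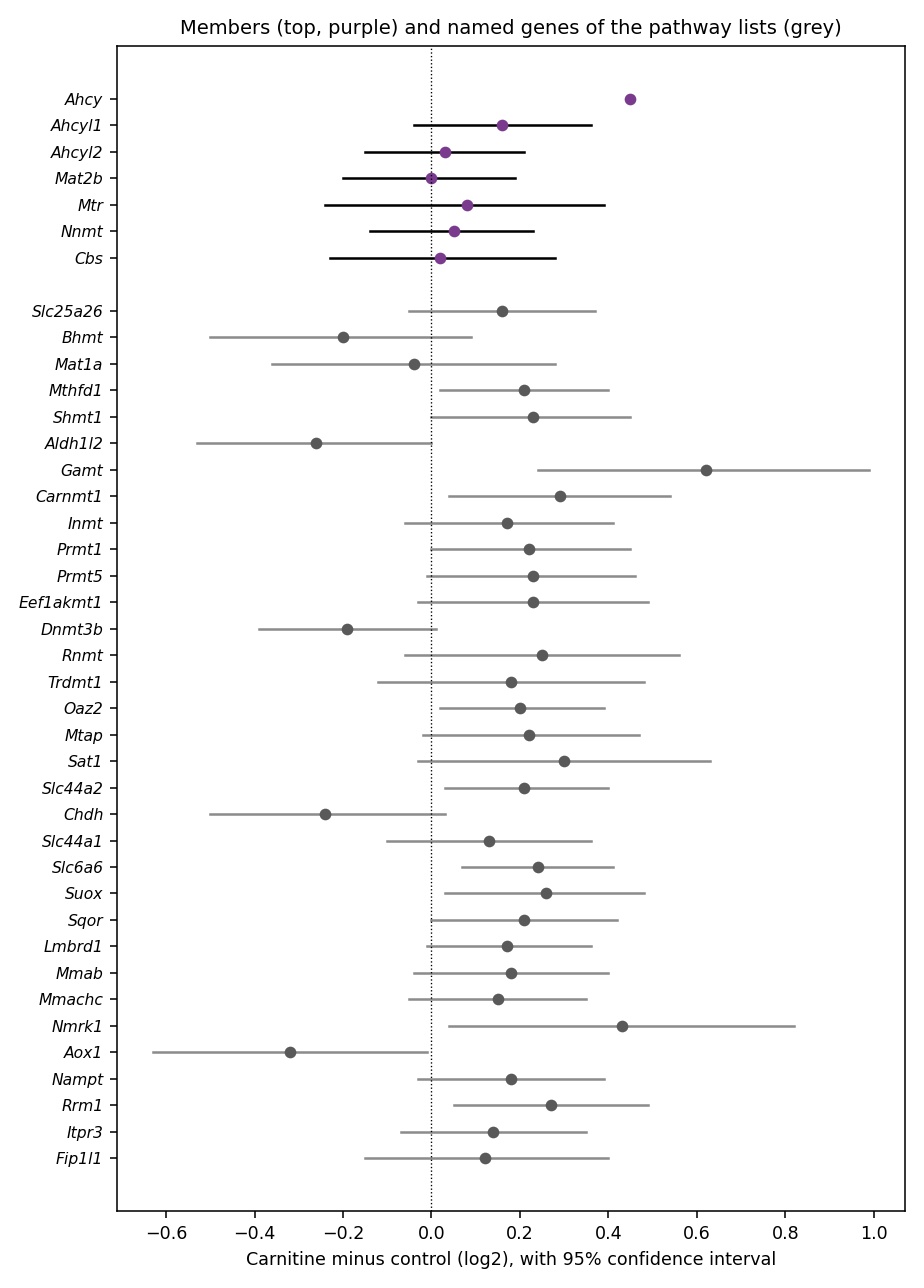
Carnitine minus control (log2, x axis) with 95% confidence intervals from limma for the members (purple) and for the 3 genes of smallest unadjusted p in each list around the cycle (grey). Ahcy has no interval because it was chosen for its difference, and the grey genes lie away from 0 partly because they were chosen by p.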

How the data were processed

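RNA of gastrocnemius muscle from 10 mice was measured on Affymetrix whole-transcript mouse gene arrays. The deposited log2 values of 34390 probe sets were made by RMA in Affymetrix Expression Console, per the submitters' processing notes. No version or genome build of that step is given in these sources. RMA hides differences in total RNA and shrinks dim signals. Probe sets were named from the platform annotation: 23521 have 1 symbol, 1814 several, and 9055 are not listed. One probe set per gene left 22180 genes.

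The diets were compared in limma 3.58.1, run in R 4.3.3 (lmFit and eBayes with a mean-variance trend, two-sided, Benjamini-Hochberg over all genes, threshold 0.05). The fit was tested on simulated data. The median SE of a difference was 0.11, which the number of arrays limits. Correlations between members used exact permutations within groups, 14400 in all. The 21 pairs replace a planned 28, because Mat2a had no value. No batch is labelled.

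Members and lists were chosen with earlier results of these data known. Named genes are the members, the 3 genes of smallest p in each of 11 lists and the 4 genes most like the brighter Ahcy probe set. The labels do not call the replicate numbers pairs. Upstream sequences are RefSeq's (GRCm38.p6), found for 7 of the 8 genes. Alternatives covered scaling, variance model, array weights, dim genes, probe sets, a replicate block and the omission of each array.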

Additional observations from a re-analysis of the deposited data

Results flagged for a closer look

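In groups of 5 mice, 90 groups of values of the 44 named genes and of the dimmer Ahcy probe set were searched for a mouse far from the rest of its group, and chance gives such a gap in about 1 group in 20. A single group was marked. Sqor, the mitochondrial sulfide oxidase downstream of Cbs, read 6.68 in control replicate 5 and 6.98 to 7.04 in the other 4 controls. None of the members was marked. The members' control values that fell into 2 sets, such as Mtr, are not found by a search for a single distant mouse.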

How the results depend on the processing

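Of 829 recomputed differences of the 44 named genes, 806 kept their direction and their side of the threshold, 22 turned sign, and 1, the Ahcy mean over both probe sets (0.08), moved by more than the control spread. After cyclic loess the difference was -0.02 for Ahcyl2, -0.02 for Mtr and 0.03 for Mat1a, which was 0.06 with array weights, and median centring gave 0.03 for Mat2b; the cause was not tested. Leaving out each array in turn gave -0.009 to 0.06 for Ahcyl2, -0.05 to 0.06 for Mat2b, -0.03 to 0.16 for Mtr, -0.02 to 0.12 for Cbs, -0.13 to 0.10 for Mat1a, -0.004 to 0.19 for Fip1l1 and -0.10 to 0.16 for Ankrd44. The count of all genes past the adjusted threshold was 0 to 1 (1 without control replicate 2), those with an unadjusted p below 0.05 were 445 to 1280 higher (1280 without control replicate 2, 445 without carnitine replicate 2) and 648 to 1280 lower, and with dim genes left out they were 571 higher and 162 lower, since 148 of the 850 lower ones lay at or above the median level. Of the other pathway genes, 5 to 16 were higher and 0 to 2 lower when arrays were left out, and 5 were higher and 3 lower after cyclic loess and 0 lower after median centring. Of the lower ones 2 were found without control replicate 1, 4 or 5 or carnitine replicate 1, and 0 without control replicate 2 or carnitine replicate 2 or 4. The correlation of Nnmt and Cbs (-0.90 to -0.83) kept its direction and lost its call in every omission, and the number of pairs past the threshold was 0 in each omission and 6 after median centring, settings added after the data were seen. With the replicate block 4 other pathway genes were lower, and it changed no other call. No pairing by replicate number was seen: deviations of same-numbered mice correlated from -0.13 to 0.24, and 0 of 5 matched best with their own number. With 5 numbers this cannot exclude a pairing.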

Other observations

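The control mice varied more than the carnitine mice in 6 of the 7 measured members. The standard deviation of Mat2b was 0.04 in carnitine and 0.17 in control, that of Mtr was 0.09 in carnitine and 0.38 in control, and Ahcyl2 was the exception with 0.10 in carnitine and 0.09 in control. The same held for 75% of all genes, with a median standard deviation of 0.133 in carnitine and 0.197 in control, so the members are close to the arrays as a whole. Among the 137 genes around the cycle it held for 109. Array weights estimated by limma ran from 1.09 to 1.84 in carnitine and from 0.26 to 1.05 in control, with the lowest for control replicate 5.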
